A study of Mus musculus with 3 samples.

Results

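The 9 genes described here are the TGF-beta ligands Tgfb1, Tgfb2 and Tgfb3, the activin subunit gene Inhba, and Tgfbi, Ctgf, Cyr61, Acta2 and Tagln, which TGF-beta is known to induce in mesenchymal cells. They were chosen as the spots whose gene name in the array file was one of these 9, controls left out, which gave 14 of 41174 probes and 9 of 27729 genes. Ctgf and Cyr61 are named Ccn2 and Ccn1 in current RefSeq annotation.

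RNA was compared on 3 Agilent mouse arrays of 2 colours. Stromal RNA came from OP9-DL1, a mouse bone marrow stromal line (strain label B6-C3Hf1) that presents the Notch ligand Dll1, kept with pAsc, a form of vitamin C, at 800 µM for 24 h or left untreated. T cell RNA came from C57BL/6 bone marrow progenitors grown on OP9-DL1 with Flt3L and IL7, and harvested on day 14 after 24 h with 800 µM pAsc, on day 17 after 72 h with it, or on the same days untreated. All 6 RNA samples were from cells in MEM, with treated RNA in Cy5 and untreated RNA in Cy3 on the same array, 1 array per comparison. The T cells had been parted from the stromal layer by a short adherence step, and the labels do not say how many mice gave the progenitors.

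With no replicate array and no dye swap, no test was possible, and a gene-specific dye effect and the effect of pAsc cannot be told apart on 1 array. Values are log2 ratios of pAsc over untreated RNA after loess normalization within the array, and a gene was called where the 2 channels differed at least 2-fold and both were well above background. The error that can be stated is technical: different probes of 1 gene had a pooled log2 SD of 0.178 on the stromal array, 0.143 on the T cell array at 24 h and 0.177 at 72 h, and repeat spots of 1 probe had an SD from 0.0669 to 0.0711. The number of arrays limits the precision. A gene is given by its brightest probe unless another is named.

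TGF-beta ligands are secreted in a latent form held by a propeptide and by binding proteins in the matrix. Once released they bind the type II and type I receptors Tgfbr2 and Tgfbr1, which phosphorylate Smad2 and Smad3, and activins signal through the same SMADs from their own receptors. In fibroblasts and other mesenchymal cells the targets include matrix genes and a contractile set that also depends on the actin-regulated cofactors of SRF and on YAP with TEAD. Acta2 encodes smooth muscle alpha-actin and Tagln encodes transgelin, an actin-binding protein, and both mark contractile stromal cells rather than lymphocytes.

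The label osteoblast and the T cell label were checked against marker genes. In stromal RNA 28 of 28 stromal markers, 6 of 7 osteoblast markers and 7 of 8 smooth muscle markers on the array were well above background in both channels, while the osteoblast gene Ibsp and the smooth muscle regulator Myocd were not. The same held for 6 of 7 adipocyte markers, so these counts do not set osteoblasts apart from adipocytes. Of 15 T cell markers, 14 were well above background in both channels at 24 h and 15 at 72 h, against 1 in stromal RNA. Of 8 B cell markers it was 7 at 24 h and 6 at 72 h, against 4 in stromal RNA. Of 12 myeloid and platelet markers it was 8 and 9, against 7. Since stromal RNA also scored here, these counts alone do not show whether the T cell RNA held that of other blood cells. The T cell RNA did hold stromal transcripts. In T cells on day 14, 27 of 28 stromal markers were well above background with pAsc and 26 of 28 without, and on day 17 it was 28 and 27.

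The probes are 60 bases long, and 4 of them are shown because they separate what the array could and could not resolve. The Tgfb1 probe (chr7:26489877-26489936, mm9, plus strand) was spotted 10 times and gives the most closely repeated ligand value. The Inhba probe (chr13:16118634-16118693, plus strand) is the only one for that gene. Only Acta2 and Tagln have more than 1 probe, and only Tgfb1 and Acta2 have a probe with repeat spots. The Acta2 probe A_51_P450957 (chr19:34322995-34326249, minus strand) is mapped across 3255 bases, so its bases are not contiguous in the genome and span a splice junction. The Tagln probe A_52_P517683 (chr9:45738916-45738975, minus strand) is the less bright of a pair that gave similar ratios in T cells.
Tgfb1 A_51_P390715: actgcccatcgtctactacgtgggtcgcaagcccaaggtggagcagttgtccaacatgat
Inhba A_51_P239750: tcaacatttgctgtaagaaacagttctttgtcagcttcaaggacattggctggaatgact
Acta2 A_51_P450957: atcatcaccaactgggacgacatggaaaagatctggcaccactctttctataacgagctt
Tagln A_52_P517683: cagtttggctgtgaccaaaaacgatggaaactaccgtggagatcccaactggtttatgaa
The Acta2 junction probe lies in a stretch that actin genes share closely, so its signal may hold other actins and is treated as uncertain.

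The promoter table from RefSeq (GRCm38.p6) listed 6 of the 9 genes, Tgfb1, Tgfb2, Tgfbi, Inhba, Acta2 and Cyr61. The 250 bases upstream of each start were searched, on both strands, for a CArG box (the site SRF binds), for GGAATG (a TEAD-type site) and for CAGAC (a SMAD-type site). GGAATG was found in 2 of the 6 windows, Acta2 and Cyr61, and in 12.6% of 32851 promoter windows of the same length. A CArG box with a core of only A and T was in 0 of 6 and in 1.47% of all windows, and one with 1 other core base was in Acta2 alone and in 8.59% of all. CAGAC was in 3 of 6, Tgfb2, Tgfbi and Acta2, and in 42.2% of all. The Acta2 and Cyr61 windows are shown because they hold such letters, with GGAATG or its complement and the CArG-type boxes in capitals.
Acta2 (chr19:34255374-34255623, GRCm38.p6, minus strand): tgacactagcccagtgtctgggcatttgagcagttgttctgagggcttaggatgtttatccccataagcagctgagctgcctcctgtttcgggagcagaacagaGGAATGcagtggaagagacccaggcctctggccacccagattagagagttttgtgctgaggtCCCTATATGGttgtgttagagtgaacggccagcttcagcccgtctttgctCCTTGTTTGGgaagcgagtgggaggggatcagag
Cyr61 (chr3:145649986-145650235, GRCm38.p6, minus strand): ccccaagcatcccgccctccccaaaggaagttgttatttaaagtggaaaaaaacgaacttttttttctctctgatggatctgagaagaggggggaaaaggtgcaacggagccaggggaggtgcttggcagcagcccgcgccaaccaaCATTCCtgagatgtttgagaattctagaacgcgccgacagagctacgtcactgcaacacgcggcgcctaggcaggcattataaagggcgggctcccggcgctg
In Acta2 the capitals run from base -146 to -141 (GGAATG), from -84 to -75 and from -34 to -25 (CArG type) relative to the start. In Cyr61 they run from -103 to -98, on the opposite strand. These are matches of letters, and the arrays measured no binding.

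Levels are given first, as log2 normalised intensity after loess and then quantile normalization between the 3 arrays. The second step gives each array the same distribution of mean spot brightness, though stromal and T cell RNA differ in make-up. The levels compare samples for 1 probe and not 1 gene with another. Tgfb1 ran from 9.45 to 10.12 across the samples. It stood at 10.03 in pAsc and 9.80 in untreated stromal cells, 10.04 and 10.12 in pAsc and untreated T cells on day 14, and 9.45 and 9.64 in pAsc and untreated T cells on day 17. Tgfb1 was thus the one member that was no lower in T cell RNA on day 14 than in stromal RNA with the same dye, at 100.5% of it with pAsc and 124.5% untreated, or 90.8% and 119.5% with Agilent's processed signals scaled at the 75th percentile. Inhba, whose product forms activin A as a dimer, came next in its shares, 49.1% with pAsc and 34.1% untreated, with levels of 9.89 and 9.80 in pAsc and untreated stromal cells, 8.87 and 8.25 on day 14 and 9.46 and 8.89 on day 17 in pAsc and untreated T cells.

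The other 2 ligands were far lower in T cell than in stromal RNA on day 14. Tgfb2 stood at 11.19 in pAsc and 11.81 in untreated stromal cells, against 8.89 and 8.44 in pAsc and untreated T cells on day 14 and 10.61 and 10.47 on day 17. Tgfb3 stood at 13.96 in pAsc and 13.67 in untreated stromal cells, 11.33 and 11.07 in T cells on day 14, and 13.43 and 12.78 on day 17, pAsc before untreated. In untreated RNA the T cells thus held 9.64% of the stromal Tgfb2 signal and 16.4% of the stromal Tgfb3 signal on day 14, and 39.4% and 54.1% on day 17. With the processed signals the shares were 7.11% and 9.94% on day 14 and 30.6% and 31.5% on day 17.

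Among the targets, the contractile genes were the lowest in T cell RNA relative to stroma. Acta2 stood at 16.83 in pAsc and 16.26 in untreated stromal cells, 13.02 and 12.24 in pAsc and untreated T cells on day 14, and 15.42 and 14.85 on day 17. Tagln stood at 15.92 and 15.60 in pAsc and untreated stromal cells, 11.90 and 11.04 on day 14, and 13.89 and 13.18 on day 17. On day 14 the untreated T cells held 6.16% of the stromal Acta2 signal and 4.23% of the stromal Tagln signal, and on day 17 the shares were 37.6% and 18.6%. With the processed signals they were 3.24% and 2.22% on day 14 and 19.1% and 9.44% on day 17. Both shares lay below the median of the 28 stromal markers at the same dye and day, 20.0% and 62.2%.

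The matricellular targets lay between. Ctgf, a secreted CCN protein that binds matrix and growth factors, stood at 15.65 in pAsc and 15.20 in untreated stromal cells, 12.44 and 12.11 on day 14, and 14.92 and 13.89 on day 17. Cyr61, its close relative, stood at 13.03 and 13.04 in pAsc and untreated stromal cells, 11.73 and 11.18 on day 14, and 13.82 and 13.29 on day 17. Cyr61 was the only member above its stromal level on day 17, at 173.3% with pAsc and 118.7% untreated, and with the processed signals those shares were 101.6% and 71.5%. Tgfbi, a secreted adhesion protein of the matrix, stood at 11.76 and 11.34 in pAsc and untreated stromal cells, 9.63 and 9.76 on day 14, and 11.19 and 11.25 on day 17.

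**Figure D1:**
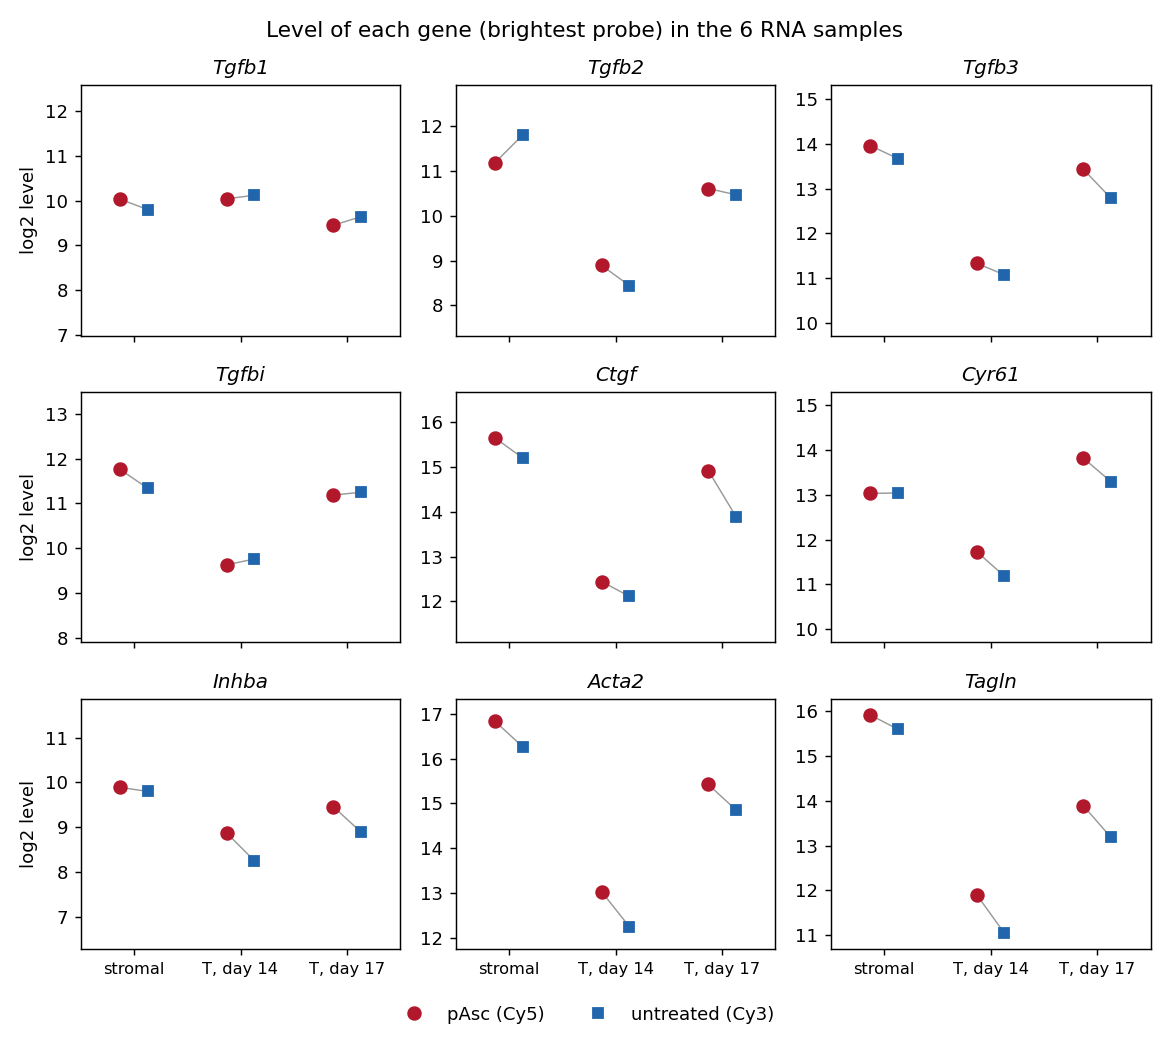
Log2 normalised intensity (y axis) of the brightest probe of each of the 9 genes in the 3 cultures (x axis), with pAsc RNA as red circles and untreated RNA as blue squares, 1 value each; every panel spans the same number of log2 units. In 8 of the panels the T cells on day 14 lie lowest, and Tgfb1 is the exception.

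In untreated T cell RNA, Tgfb1 was lower on day 17 than on day 14 by 0.48, while the 8 others were higher, from 0.64 for Inhba to 2.61 for Acta2, on the log2 scale. With pAsc the change over the same days was -0.59 for Tgfb1 and ran from 0.59 for Inhba to 2.48 for Ctgf for the others. Over the 9 genes the median share of the stromal level was 20.2% with pAsc and 16.4% untreated on day 14, and 66.8% with pAsc and 53.3% untreated on day 17. With the processed signals these were 14.9% and 9.94% on day 14 and 50.1% and 31.5% on day 17, pAsc before untreated. On the loess scale the medians across all genes above background in stroma were 81.5% with pAsc and 81.4% untreated on day 14, and 82.3% and 82.9% on day 17. The 28 stromal markers had medians of 29.3%, 20.0%, 75.4% and 62.2%, in that order too, so the members' medians and the stromal markers moved in step. In such bulk RNA, fewer stromal cells among the T cells and less RNA per cell cannot be told apart, and the part of carried-over stroma in these levels was not tested. The smooth muscle marker Cnn1 (calponin) was at 4.23% and 7.72% of its untreated stromal level on day 14 and day 17, and the light chain gene Myl9 at 4.10% and 29.9%.

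**Figure D2:**
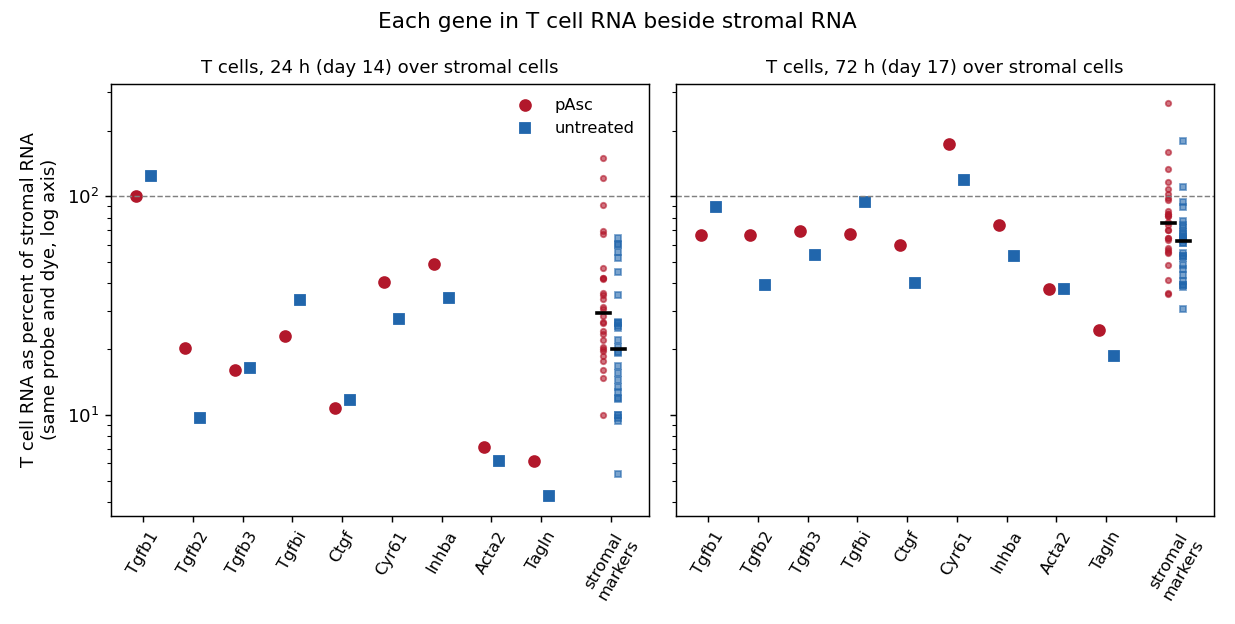
T cell RNA as a percentage of stromal RNA for the same probe and dye (y axis, log scale), on day 14 (left) and day 17 (right), for each gene and for the 28 stromal markers; red circles are pAsc, blue squares are untreated, the black bars are medians and the dashed line is 100%. Acta2 and Tagln lie at the low end, from 4.23% to 7.16% on day 14, and Cyr61 on day 17 and Tgfb1 on day 14 lie above the line.

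In stromal cells treated with pAsc for 24 h, 0 of the 9 genes were 2-fold higher and 0 were 2-fold lower, where 0.432% of 14346 measured genes were higher and 0.118% lower, 0.551% in all. All measured genes had a median of 0.02 and a central 95% from -0.60 to 0.56, with 53.4% above 0. The members' ratios had a median of 0.29 and ran from -0.62 to 0.57, with 7 of 9 above 0. The lowest was Tgfb2, with a ratio of -0.62, or 1.54-fold lower with pAsc, and Agilent's own ratio for it was -0.64 with an error of 0.212. The other ligands lay above 0, Tgfb1 at 0.23 with an SD of 0.0444 over its 10 spots and Tgfb3 at 0.29. Under median centring on all probes, which shifts the median of all measured genes by 0.64, 0.41 and 0.54 on the 3 arrays (stroma first, then T cells by time), the Tgfb2 value was 0.23, which is still below the shifted median.

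Acta2, Ctgf and Tagln, whose probes are very bright in stroma, were at 0.57, 0.45 and 0.32. Agilent's own ratios for them were 0.17, 0.22 and -0.03. The second Tagln probe was at 0.13, and at 0.18 by Agilent's ratio. Among 500 probes of like brightness the median ratio was 0.19 for Acta2, 0.10 for Ctgf and 0.18 for Tagln, so bright probes as a class lay above 0 on that array after loess. The remaining Acta2 probes gave 0.01, -0.26, -0.42 and 0.01, so the direction of Acta2 in stromal cells was not settled by its 5 probes. Under median centring on measured genes, with no correction over brightness, Acta2 and Ctgf were at 1.32 and 1.08. Tgfbi was at 0.42 with both loess and Agilent's ratio, and Inhba and Cyr61 were at 0.09 and -0.01, within the spread between probes of a gene.

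In T cells treated for 24 h, again 0 of 9 passed 2-fold in either direction, against 0.312% of 16971 measured genes higher and 0.0118% lower, 0.324% in all. All measured genes had a median of 0.02 and a central 95% from -0.32 to 0.64, with 54.7% above 0. The members' median ratio was 0.45, from -0.12 to 0.87, with 7 of 9 above 0. The contractile genes led. Tagln was at 0.87, or 1.82-fold higher with pAsc, and its second probe gave 0.76. Acta2 was at 0.79, or 1.72-fold higher, with an SD of 0.0605 over the 7 of its spots that were used. Those ratios were above 99.3% and 98.8% of the measured genes.

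The Acta2 probes did not give 1 value. A_52_P210078 gave 0.87 and A_52_P239556 gave 0.23, while the junction probe A_51_P450957 gave 0.02 and A_52_P644232 was not well above background on either T cell array. The junction probe also stood apart in its levels, since in T cell RNA it held from 47.6% to 57.5% of its stromal signal, where A_52_P420504 held from 6.16% to 37.8% and A_52_P210078 from 2.36% to 28.0%. The same order was seen at 72 h, with 0.58 for A_52_P420504, 0.75 for A_52_P210078, 0.27 for A_52_P239556 and 0.05 for the junction probe.

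Of the other genes at 24 h in T cells, Inhba was at 0.62, Cyr61 at 0.55, Tgfb2 at 0.45, Ctgf at 0.33 and Tgfb3 at 0.26. Tgfb1 and Tgfbi were at -0.08 and -0.12, within the spread between probes of a gene. The Inhba ratio, 1.54-fold, rests on 1 probe whose untreated signal was 195 units over a local background of 19.0, while the pAsc signal was 803 units over 67.0; signals of the 2 dyes are not on 1 scale.

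At 72 h in T cells, 1 of 9 genes, Ctgf, was 2-fold higher and 0 were 2-fold lower, against 0.227% higher and 0.381% lower of 16282 measured genes, 0.608% in all. Ctgf had a ratio of 1.03, or 2.05-fold, above 99.8% of measured genes, and Agilent's own ratio of 0.96 with an error of 0.222 lay just under the rule. Both values come from 1 spot of the only Ctgf probe. All measured genes had a median of 0.01 and a central 95% from -0.53 to 0.55, with 51.0% above 0. The members' median was 0.57, from -0.19 to 1.03, with 7 of 9 above 0. Under median centring on measured genes Ctgf was at 1.43 and Acta2 and Tagln were both at 1.04. Tagln was at 0.72 with a second probe at 0.69, Tgfb3 at 0.65, Acta2 at 0.58, Inhba at 0.57 and Cyr61 at 0.53. Tgfb2 was at 0.14, Tgfbi at -0.06 and Tgfb1 at -0.19, the last with an SD of 0.0574 over its 10 spots. Median centring on all probes turned the negative values of Tgfb1 and Tgfbi on both T cell arrays positive, from 0.32 to 0.64.

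**Figure D3:**
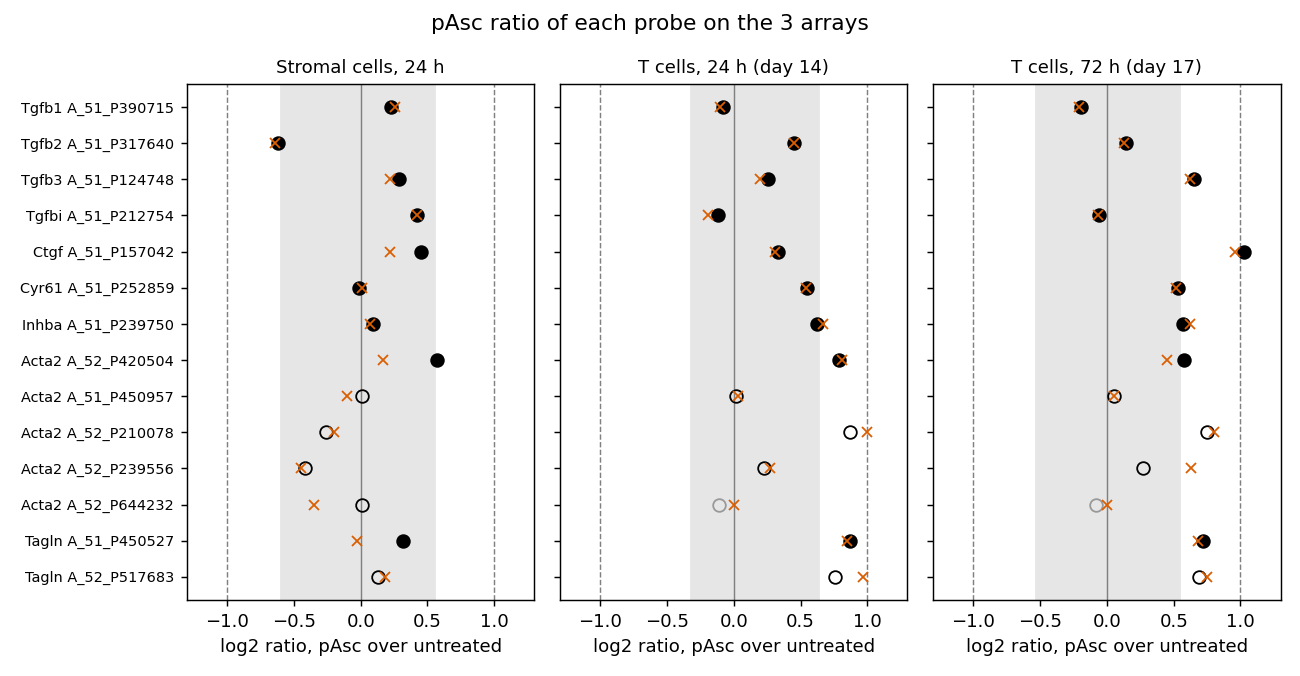
Log2 ratio of pAsc over untreated RNA (x axis) for each of the 14 probes (y axis) on the 3 arrays; filled circles are the brightest probe of a gene, open circles the other probes (grey where not well above background in both channels), crosses Agilent's own ratio, the grey band the central 95% of measured genes and the dashed lines the 2-fold rule. Ctgf at 72 h, at 1.03, is the only filled circle past a dashed line.

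Stromal markers were also mostly above 0 in the T cell comparisons. Their median was lower at 72 h than at 24 h, while the members' median was higher. At 24 h 26 of 26 measured stromal markers had ratios above 0, with a median of 0.64, and 4 of them, Fbn1, Postn, Mgp and Col3a1, were 2-fold higher, from 1.01 to 1.27, of which Col3a1 had 0.98 by Agilent's ratio. The other measured probes of Fbn1 and Col3a1 gave 0.77 and 0.21, under the rule. Their summed level was 17.94 with pAsc and 17.24 untreated on the log2 scale. At 72 h 19 of 27 were above 0, with a median of 0.29, 2 (Fbn1 and Mgp, the second at 0.95 by Agilent's ratio) were 2-fold higher, and the summed level was 19.10 with pAsc and 18.68 untreated. The other Fbn1 probe gave 0.56 at 72 h. In the stromal cells themselves 13 of 28 were above 0, with a median of -0.07, and the summed level was 19.60 with pAsc and 19.41 untreated. Lum and Dcn were the markers not well above background in untreated T cells on day 14, and the part of stromal carry-over in the members' ratios was not tested.

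Set against the stromal markers' median on the same array, an alternative chosen after seeing the data, the members' median in T cells was -0.19 at 24 h and 0.28 at 72 h. At 24 h Tagln and Acta2 lay 0.23 and 0.15 above that median, Inhba, Cyr61, Tgfb2, Ctgf and Tgfb3 from 0.02 to 0.38 below it, and Tgfb1 and Tgfbi farthest below, by 0.72 and 0.76. At 72 h Ctgf lay 0.74 above it, Tagln 0.43 and Tgfb3 0.36, while Tgfb2, Tgfbi and Tgfb1 lay below it.

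Between the T cell arrays 0 of 9 genes differed in ratio by at least 1 on the log2 scale, where 0.553% of 15741 genes measured on both did. Ctgf differed most, with a ratio of 1.03 at 72 h against 0.33 at 24 h, a difference of 0.70, and Agilent's ratios gave 0.65. Tgfb3 was 0.39 higher at 72 h, Tgfb2 was lower by a difference of -0.31, and the remaining 6 differed by -0.21 to 0.06. A dye effect fixed to a probe is the same on each array and drops out of these differences, and day of culture and time with pAsc changed together.

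Between the stromal and T cell arrays at 24 h, 1 of 9 genes differed by at least 1, against 1.75% of 13741 genes. That gene was Tgfb2, whose ratio was -0.62 in the stroma and 0.45 in T cells, a difference of -1.07 (-1.10 by Agilent's ratios). Tgfb2 has 1 probe with 1 spot per array. The difference was -0.59 under median centring on all probes and -0.82 under centring on measured genes, so it no longer reached 1 there. Tgfbi ran the other way, with 0.42 in the stroma and -0.12 in T cells, as did Tgfb1, with 0.23 and -0.08. Cyr61, Tagln and Inhba were lower in the stromal comparison, by differences of -0.56, -0.54 and -0.53. Tgfb3 and Ctgf differed by 0.03 and 0.12, which is within the spread between probes of a gene. Acta2 differed by -0.22 by its brightest probe and by -1.13 by A_52_P210078.

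The rest of the pathway was read from 9 lists holding 96 genes. Of those, 88 were measured on the stromal array, where 1 was 2-fold higher and 47 had ratios above 0, with a median of 0.03. In T cells 88 were measured at 24 h, with 3 higher, 71 above 0 and a median of 0.24, and 89 at 72 h, with 2 higher, 72 above 0 and a median of 0.26. None of them was 2-fold lower on any of the 3 arrays (0 of 88, 88 and 89). The 5 called values in T cells thus compare with 0.312% of all measured genes higher at 24 h and 0.227% at 72 h. On those arrays 26 of 26 and 19 of 27 stromal markers lay above 0. Over all measured genes, 53.4% lay above 0 on the stromal array, and 54.7% and 51.0% in T cells at 24 h and 72 h.

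The receptors gave ratios near 0. Of 6 receptor genes 5 were measured on the stromal array and 6 on each T cell array, and 0 passed 2-fold on any of them. Tgfbr1 was at -0.20, 0.06 and -0.10 in stromal cells, T cells at 24 h and T cells at 72 h, Tgfbr2 at -0.32, -0.12 and -0.03, and the coreceptor gene Tgfbr3 at -0.18, 0.05 and 0.22. Unlike most of the 9 genes, Tgfbr1 was brighter in T cell than in stromal RNA, at 668.8% of the untreated stromal level on day 14 and 428.2% on day 17. For latency, Ltbp1, which ties latent TGF-beta to the matrix, was at 0.06, 0.24 and 0.51 by its brighter probe. The other Ltbp1 probe gave 0.10, 0.03 and -0.14, and 0 of the 8 measured genes of that list passed 2-fold.

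In the SMAD list 0 of 12 measured genes passed 2-fold on the stromal array, 0 of 11 at 24 h and 0 of 12 at 72 h in T cells. Smad7, which feeds back on the receptors, was at 0.21, 0.47 and 0.56, and Skil, a corepressor that TGF-beta also induces, at 0.04, 0.27 and 0.50, in the order stromal cells, T cells at 24 h and T cells at 72 h. Smad2 was at 0.09, 0.21 and 0.46, and Smad3 at -0.08, -0.22 and -0.26. The other Smad3 probe gave 0.32, 0.07 and -0.03. In the activin list, 0 of 8 passed 2-fold on each array, and Fst, which encodes the activin-binding follistatin, was at -0.60, 0.18 and -0.32.

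Among 16 other TGF-beta targets, all measured, 0 passed 2-fold in stromal cells, 2 in T cells after 24 h of pAsc and 1 after 72 h. Col8a1, a collagen chain, was 2-fold higher in T cells at 24 h, at 1.08, and was at 0.56 at 72 h and -0.44 in stromal cells. Its other probe gave 0.96, 0.96 and -0.41 in that order, so it was under the rule and did not fall from 24 h to 72 h. Tnc, the matrix glycoprotein tenascin C, was higher at 72 h, at 1.01, and was at 0.30 at 24 h and -0.08 in stromal cells. In untreated T cell RNA on day 14, Col8a1 and Tnc were at 6.99% and 23.3% of their untreated stromal levels.

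Among 17 contractile and cytoskeletal genes, 1 passed 2-fold in stromal cells, 1 in T cells after 24 h of pAsc and 0 after 72 h. The stromal one was Myl6, a myosin light chain with a very bright probe, at 1.01, with a second probe at 0.93 and Agilent's own ratio at 0.56, under the rule. The T cell one was Myl9, the regulatory light chain of smooth muscle myosin, at 1.04, with 0.74 at 72 h and 0.58 in stromal cells. The tropomyosin genes Tpm1 and Tpm2 were at 0.38 and 0.69 in T cells at 24 h, at 0.26 and 0.37 at 72 h, and at -0.02 and 0.07 in stromal cells. Of the smooth muscle markers 1 passed, Cnn1 at 72 h in T cells at 1.26, with 0.70 at 24 h and 0.56 in stromal cells. Agilent's ratio for Cnn1 in T cells was past the rule at both times, at 1.02 and 1.48. In the list of SRF and MRTF regulators, Srf was at 0.27, 0.31 and 0.34 and its cofactor gene Mkl1 at -0.05, -0.01 and 0.22, for stroma and then T cells by time. The other Mkl1 probe gave 0.15, -0.05 and -0.20. Rhob, a small GTPase gene, had the highest ratios of that list in the same order, 0.47, 0.78 and 0.98, and the kinase gene Rock1 had the lowest in stroma, -0.73; both were named after their values were seen. On each array 0 of the 8 measured genes of that list passed 2-fold. By Agilent's ratio Rhob was past the rule in T cells, at 1.04 at 24 h and 1.17 at 72 h.

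Among the genes of the YAP and TEAD list, 11 were measured on each array. Ankrd1, which like Ctgf and Cyr61 is a standard YAP target, was 2-fold higher in T cells at 72 h, at 1.02, with 0.21 at 24 h and 0.55 in stromal cells, while Amotl2 was at 0.30, 0.22 and 0.06. Of the 4 other CCN family genes 3 were measured, and 0 passed 2-fold.

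**Figure D4:**
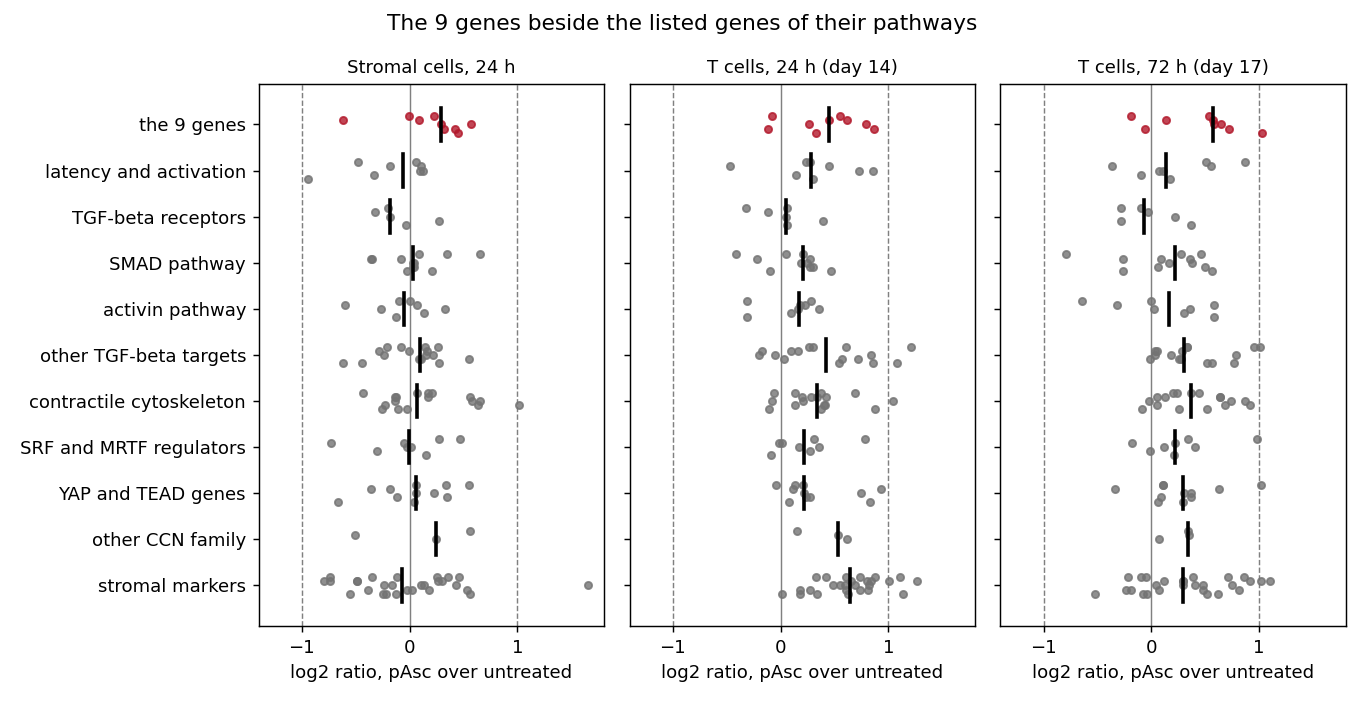
Log2 ratio of pAsc over untreated RNA (x axis) on the 3 arrays for the 9 genes (red) and for each list of pathway and marker genes (grey), 1 point per measured gene; black bars are medians and dashed lines the 2-fold rule. In T cells at 24 h the medians are 0.45 for the 9 genes and 0.64 for the stromal markers, and at 72 h they are 0.57 and 0.29.

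The genes closest to each member in pattern over the 6 RNA samples were found among 11880 named genes above background in all 6, as the smallest root mean square difference of mean-centred log2 levels. For Tgfb1 they were Cep164 at 0.033, Zfp668 at 0.0351 and Wdyhv1 at 0.0512, and for Inhba Kdelr2 at 0.0512, Prkce at 0.075 and Bicd2 at 0.0794. For Tgfb2 they were Enpep at 0.0619, Ccn4 at 0.089 and Fstl1 at 0.0982, of which Fstl1 is in the stromal marker list. Tgfb3 lay closest to Sfrp2 at 0.123, Ccdc80 at 0.127 and Fbxw17 at 0.139. For the contractile genes the closest were Lmcd1 at 0.128, Plekhh3 at 0.141 and Spon2 at 0.144 for Acta2, and Tead2 at 0.127, Cygb at 0.151 and Sardh at 0.162 for Tagln. Ctgf and Cyr61 had the loosest matches, starting at 0.173 for Adipoq and 0.165 for Kctd12b, and Tgfbi lay closest to Lctl at 0.121. These are 6 values that share 3 arrays, and the likeness is a description.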

How the data were processed

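Per the file headers, the authors read the scans with Agilent Feature Extraction 10.5.1.1 and deposited intensity values, as the mean signal, the median local background and a processed signal of each spot and channel. The deposited log10 ratio of Cy5 over Cy3 and its error follow Agilent's background subtraction and dye normalization, per the file headers, and were turned into log2 here.

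In limma 3.58.1 (R 4.3.3), normexp (offset 50) was used for background and loess (span 0.3) within each array, giving control and flagged spots a weight of 0. From 117 to 130 spots per array were flagged and 0 were saturated. Levels across arrays used Aquantile normalization of the loess values. Spots of a probe were averaged, and the brightest probe stood for its gene. Measured probes had a share of 0.5 or more of their spots well above background, in both channels. Probes were named through RefSeq accessions (25097), symbols (6333) or synonyms (1640), and 8104 kept the name in the file. Python 3.11.15 with pandas 2.3.3 gave lists and counts. The steps were tested on simulated arrays.

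Named genes were the 9 members with every probe, a list of pathway genes, up to 4 genes of a list past 2-fold on an array, and the 3 genes nearest each member in pattern. Only some of them are printed, and single values of 1 gene of the lists are not reported here. The 9 genes, the 17 lists and the alternatives were chosen with earlier results of these data known. Alternatives were other background corrections, Agilent's ratio, median centring in place of loess, a running median over brightness, other rules on probes and dim spots, and a 1.5-fold rule.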

Additional observations from a re-analysis of the deposited data

Results flagged for a closer look

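Values that went opposite ways in the stromal and T cell comparisons at 24 h and lay at least 1 apart on the log2 scale are given here. Each rests on 1 array per side and 1 spot per array, and the differences were not tested. Tgfb2 had a pAsc ratio of -0.62 in stromal cells and 0.45 in T cells, a difference of -1.07. The Acta2 probe A_52_P210078 had -0.26 in stromal cells and 0.87 in T cells, a difference of -1.13, while the brightest Acta2 probe had 0.57 and 0.79, a difference of -0.22.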

How the results depend on the processing

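No paired analysis was possible because each comparison had 1 array, and for the same reason no replicate could be left out. In this section, counts under centring, Agilent's ratio or marker subtraction have no share of all genes beside them. Such counts are therefore not a result about the members. In stromal cells, centring on all probes gave 5 genes past 2-fold and a median of 1.28, centring on measured genes 2 and 0.63, and a 1.5-fold rule 1 gene, against 4.98% of all. In T cells at 24 h, centring on all probes gave 3 and 0.90, subtracting the stromal marker median (chosen after seeing the data) a median of -0.19, and a 1.5-fold rule 3 genes, against 3.42% of all. In T cells at 72 h, where the reported count was 1, Agilent's ratio gave 0, centring on all probes 6 and 1.40, centring on measured genes 3 and 0.86, subtracting the stromal marker median 0 and 0.28, and a 1.5-fold rule 3, against 3.87% of all.

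For the difference between 72 h and 24 h, centring on all probes gave 1 gene and a median of 0.21, and a 1.5-fold rule 1 gene, against 3.49% of all. For stromal minus T cells, the reported median was -0.22. It was -0.53 with Agilent's ratio and -0.50 with the median over probes, and its sign turned to 0.53 and 0.30, with 0 genes past the rule, under centring on all probes and on measured genes. Centring on all probes shifts the median of all measured genes by its construction, and the causes of the other moves were not tested.

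The members' median share of the stromal level with processed signals was 14.9% with pAsc and 9.94% untreated on day 14, and 50.1% and 31.5% on day 17. Of 17 ratios at least 0.3 from 0, 16 kept their sign with Agilent's ratio (the exception was Tagln in stromal cells). With centring on all probes 16 did (the exception was Tgfb2 there), and 17 did under the other planned settings. The rules on dim probes could change no sign, since the brightest probes of all 9 genes were measured on each array. With the median over probes, Acta2 in stromal cells kept its sign only at 0.01. With the stromal marker median subtracted, 8 of the 12 T cell ratios kept their sign. Dim probes are limited by background, as for Acta2 A_52_P644232.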
